A study of Homo sapiens with 6 samples.

Results

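The 10 genes described here restrain MAP kinase signalling: the dual-specificity phosphatases DUSP1, DUSP4, DUSP5, DUSP7, DUSP8 and DUSP10, the Sprouty genes SPRY1 and SPRY2, and the Spred genes SPRED1 and SPRED2. They were picked by gene symbol, with no threshold on a measured value, although earlier results of these data were known. Each of the 10 symbols matched 1 of 60554 Ensembl identifiers through GENCODE release 29, and all 10 passed the filter on low counts, as did 18683 genes in all. RNA sequencing measured their transcripts in 6 libraries of Daoy cells, an established line from a human medulloblastoma of the cerebellum. Cells of 3 libraries (ZFmut) received lentivirus with ZBTB7B carrying the substitution R363L in its zinc-finger domain, and cells of 3 libraries (WT) received lentivirus with wild-type ZBTB7B. Both groups grew in medium with 10% serum for 4 days and met the virus at an MOI (infectious units of virus per cell) of 15 during 72 hr, so every library carries a transgene beside the cell's own gene. The question is how transcript levels differ when the zinc-finger domain of this transcription factor is mutated, and no library without a transgene is among the samples.

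MAP kinases are switched on by phosphorylation of a threonine and a tyrosine, and the dual-specificity MAP kinase phosphatases remove both phosphates. Many of these phosphatase genes are themselves transcribed in response to ERK or to stress kinases, so that a signal raises its own brake. Sprouty proteins act further upstream and dampen the signal from receptor tyrosine kinases to RAS, and Spred proteins bring neurofibromin, a protein that switches RAS off, to the membrane. In the cerebellum and in neural tumours these brakes act on growth factor signals such as those of the fibroblast growth factors.

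Gene counts per library ranged from 22236214 to 102730428, and ZFmut replicate 3 was the deepest. ZBTB7B itself reached 555, 547 and 627 CPM (counts per 1e6 counted reads, with TMM scaling) in ZFmut replicates 1 to 3, against 899, 863 and 951 CPM in WT replicates 1 to 3, so the transgene groups also differ in ZBTB7B transcript. The part of that difference in the results below was not tested. Transcripts of VIM, NES, SOX9, CD44 and FN1, which lines of this kind make, summed to 3692 to 3829 CPM in ZFmut libraries and 4377 to 4526 CPM in WT libraries. They did not move together: FN1 was lower in ZFmut (2433 against 3267 CPM on average), NES and CD44 were higher (log2 differences of 0.45 and 0.39, edgeR adjusted p = 0.000404 and 5.63e-05), and VIM and SOX9 did not pass. Of 9 markers of other cell types none was at 0 in all libraries, and their sum was 4.05 to 4.68 CPM in ZFmut libraries and 2.79 to 3.18 CPM in WT libraries. Of 4 of them that could be tested, PECAM1 and GFAP were higher in ZFmut (1.37 against 0.303 and 0.893 against 0.476 CPM on average). The GFAP call (edgeR adjusted p = 0.0473) ended in limma-voom, in DESeq2, with GC and length correction, and without ZFmut replicate 1 or 3 or WT replicate 1 or 3 (adjusted p from 0.0502 to 0.155). In RNA of whole cultures, fewer cells of a kind and less RNA per cell cannot be told apart, and the part of these markers in the results was not tested.

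With mutant ZBTB7B, DUSP4 transcript was 49.5% below its WT level, DUSP8 47.3% below and SPRY2 34.2% below. SPRED1 and SPRED2 were lower by far less, 10.4 and 12.6% below WT. DUSP1, DUSP5, DUSP7, DUSP10 and SPRY1 did not pass the test. Of the 10 genes, 5 were lower and 0 higher in ZFmut in edgeR's quasi-likelihood test (threshold of 0.05 on p adjusted after Benjamini and Hochberg). Among all tested genes, 18.4% were called lower and 17.2% higher. At an unadjusted p under 0.05, 5 of the 10 were lower and 0 higher, beside 22.9% lower and 21.5% higher among all tested genes. DESeq2 called 4 of the 10 lower and 0 higher, beside 12.8 and 12.5% of the genes it gave an adjusted p. With limma-voom 5 were lower and 0 higher, beside 19.2 and 17.8% of all tested genes. The median log2 difference (ZFmut minus WT) of the 10 genes was -0.14, beside -0.0041 over all tested genes. All 3 ZFmut libraries lay below all 3 WT libraries for 6 of the 10 genes and above them for 1, SPRY1, beside 24.4 and 22.8% of all tested genes.

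**Figure D1:**
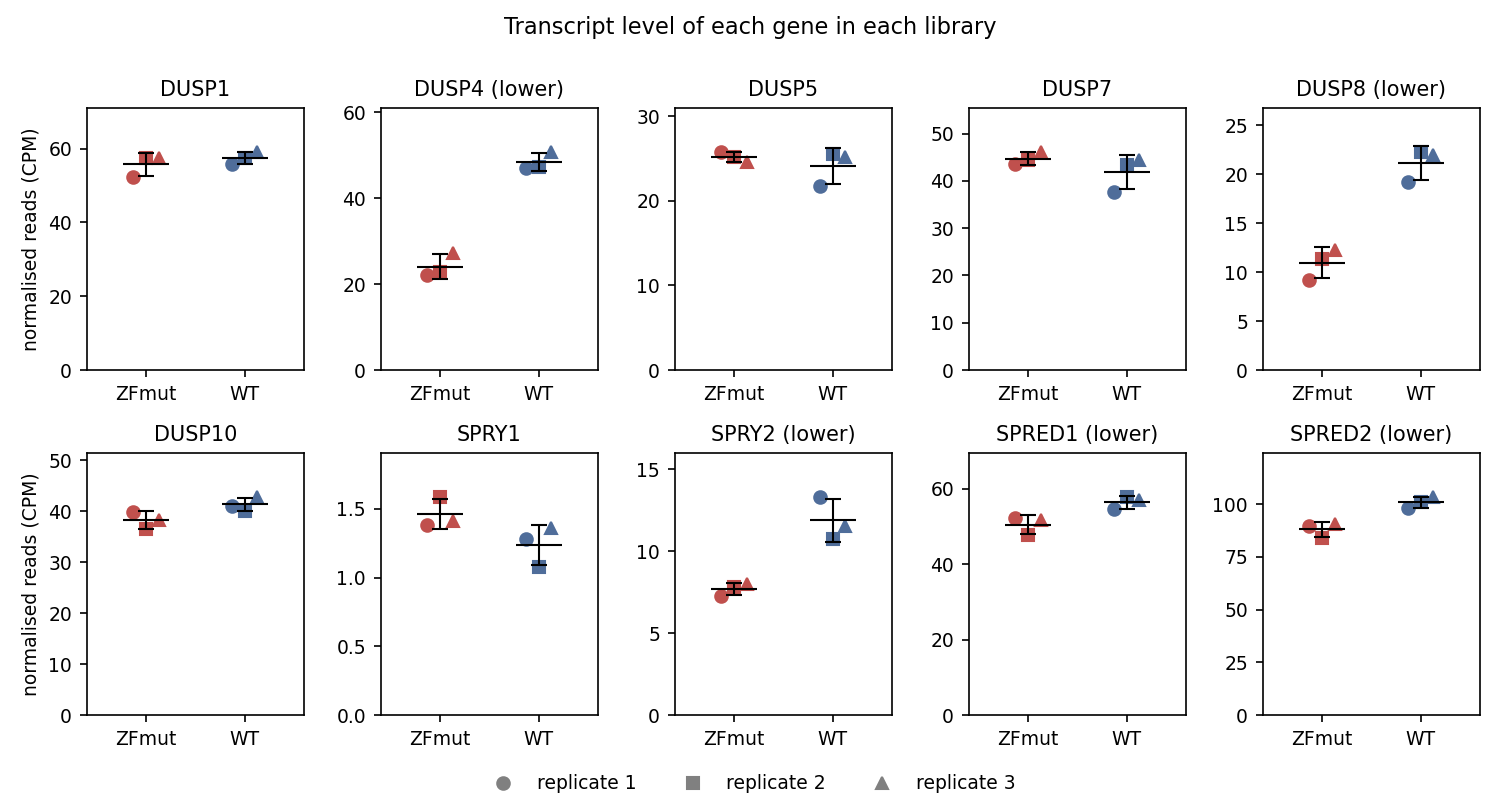
Normalised reads (CPM, linear axes from 0) of the 10 genes in each library, with ZFmut left of WT in every panel, 1 marker shape per replicate number, and the mean and SD of 3 libraries as bars; "lower" marks genes called lower in ZFmut. The groups stand well apart for DUSP4, DUSP8 and SPRY2, whereas those of DUSP1, DUSP5 and DUSP7 overlap.

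Among the inducible phosphatases of the nucleus, DUSP4 (ENSG00000120875.8, GRCh38 chromosome 8, 29333064 to 29350668, minus strand), which acts on ERK and also on JNK and p38, showed the largest difference of the 10 genes. It had 22.1, 22.7 and 27.3 CPM in ZFmut replicates 1 to 3, against 46.9, 47.3 and 50.7 CPM in WT replicates 1 to 3. The highest ZFmut library lay far below the lowest WT library, and each library held at least 496 reads of the gene. The log2 difference was -0.99 ± 0.08 (SE, n = 3 each, edgeR adjusted p = 3.05e-07), and 95.6% of all tested genes had a smaller difference in either direction.

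DUSP1 (ENSG00000120129.5, chromosome 5, 172768090 to 172771195, minus strand), an immediate-early phosphatase that prefers p38 and JNK, had 52.2, 57.6 and 57.6 CPM in ZFmut libraries, against 55.9, 57.5 and 59.2 CPM in WT libraries. The groups overlapped, and the log2 difference was -0.041, with a 95% interval of -0.16 to 0.080 (edgeR adjusted p = 0.619). After correction for GC content and exon length the difference was -0.13 and passed (edgeR adjusted p = 0.00986), and with the replicate number as a block beside that correction it was -0.14 (0.00419). DUSP5 (ENSG00000138166.5, chromosome 10, 110497838 to 110511544, plus strand), which acts on ERK in the nucleus, had 25.8, 25.2 and 24.5 CPM in ZFmut libraries, against 21.7, 25.5 and 25.2 CPM in WT libraries. WT replicate 1 alone was low, and the difference was 0.053 with a 95% interval of -0.10 to 0.21 (edgeR adjusted p = 0.613).

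The ratio of DUSP4 to DUSP1, each per kilobase of exon, was 0.118, 0.110 and 0.132 in ZFmut libraries, against 0.233, 0.229 and 0.239 in WT libraries. These ratios need no scaling between libraries, and the groups did not overlap. The genes in a ratio were put together with their differences known, so it is a description with no test.

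DUSP7 (ENSG00000164086.9, chromosome 3, 52048919 to 52056550, minus strand), a phosphatase of the cytoplasm that acts on ERK, had 43.5, 44.4 and 46.1 CPM in ZFmut libraries, against 37.7, 43.4 and 44.5 CPM in WT libraries. As for DUSP5, WT replicate 1 was the lowest library. The log2 difference was 0.095 with a 95% interval of -0.048 to 0.24 (edgeR adjusted p = 0.294).

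DUSP8 and DUSP10 both favour JNK and p38 over ERK. DUSP8 (ENSG00000184545.10, chromosome 11, 1554044 to 1571920, minus strand) had 9.19, 11.4 and 12.3 CPM in ZFmut libraries, against 19.2, 22.3 and 21.999 CPM in WT libraries. No ZFmut library came near the WT range. The log2 difference was -0.92 ± 0.10 (SE, edgeR adjusted p = 5.15e-06), and it was -1.10 after GC and length correction; with 64.6% GC in its longest transcript, DUSP8 is the richest in GC of the 10 genes. DUSP10 (ENSG00000143507.17, chromosome 1, 221701424 to 221742176, minus strand) had 39.9, 36.4 and 38.3 CPM in ZFmut libraries, against 41.1, 40.1 and 42.8 CPM in WT libraries. Its ZFmut libraries all lay below its WT libraries, but only just, at a log2 difference of -0.11 with a 95% interval of -0.24 to 0.015 (edgeR adjusted p = 0.163). With the replicate number as a block DUSP10 passed at -0.12 (edgeR adjusted p = 0.0434), and with the GC and length correction added it did not (-0.086, 0.122). The ratio of DUSP8 to DUSP10 per kilobase of exon was 0.146, 0.197 and 0.202 in ZFmut libraries, against 0.295, 0.351 and 0.325 in WT libraries, again without overlap.

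Of the Sprouty genes, SPRY2 (ENSG00000136158.10, chromosome 13, 80335976 to 80340951, minus strand), which restrains signalling from fibroblast growth factor receptors, had 7.27, 7.80 and 7.9999 CPM in ZFmut libraries, against 13.3, 10.8 and 11.6 CPM in WT libraries. The ZFmut libraries were close to each other and all lower, while WT replicate 1 stood above the other WT libraries. The log2 difference was -0.60 ± 0.10 (SE, edgeR adjusted p = 0.000205). SPRY1 (ENSG00000164056.10, chromosome 4, 123396795 to 123403760, plus strand), a close relative with the same role, was barely transcribed, with 31, 38 and 144 reads in ZFmut libraries and 37, 61 and 43 in WT libraries. That is 1.38, 1.59 and 1.41 CPM in ZFmut libraries, against 1.28, 1.07 and 1.36 CPM in WT libraries. Although the groups did not overlap, counting error alone comes to 18.0% in the library with the fewest reads. The fitted log2 value of 0.25 had a 95% interval of -0.14 to 0.64 (edgeR adjusted p = 0.311), so a change of the size seen for SPRY2 in the lower direction lies outside that interval.

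The Spred genes differed least among the genes that passed. SPRED2 (ENSG00000198369.9, chromosome 2, 65310851 to 65432637, minus strand) had 89.5, 84.1 and 90.6 CPM in ZFmut libraries, against 98.3, 101 and 103 CPM in WT libraries. All ZFmut libraries were lower. The log2 difference came to -0.19 ± 0.05 (SE; edgeR, adjusted p = 0.00781), and without WT replicate 3 the call ended (-0.18, edgeR adjusted p = 0.0677). SPRED1 (ENSG00000166068.12, chromosome 15, 38252326 to 38357249, plus strand), the gene mutated in Legius syndrome, had 52.2, 47.8 and 51.7 CPM in ZFmut libraries, against 54.6, 57.9 and 57.0 CPM in WT libraries. The groups did not overlap, and the log2 difference was -0.16 ± 0.06 (SE, edgeR adjusted p = 0.0397).

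The SPRED1 call is the weakest of the 5. It passed in 6 of 16 alternatives, and after GC and length correction the difference was -0.027 (edgeR adjusted p = 0.683); at 38.9%, SPRED1 has the lowest GC content of the 10 genes. It also missed the threshold with median-of-ratios or upper-quartile factors, with DESeq2, with no filter on low counts, and without ZFmut replicate 2 or 3 or WT replicate 2 or 3 (adjusted p from 0.0503 to 0.148).

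By replicate number, SPRY2 was lower in 3 of 3 ZFmut libraries than in the WT library of the same number, by log2 differences of -0.87, -0.46 and -0.53. The same held for DUSP4 at -1.08, -1.06 and -0.89 and for DUSP8 at -1.06, -0.97 and -0.84. DUSP5, in contrast, was at 0.25, -0.018 and -0.036, so its positive mean rests on the first pair.

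**Figure D2:**
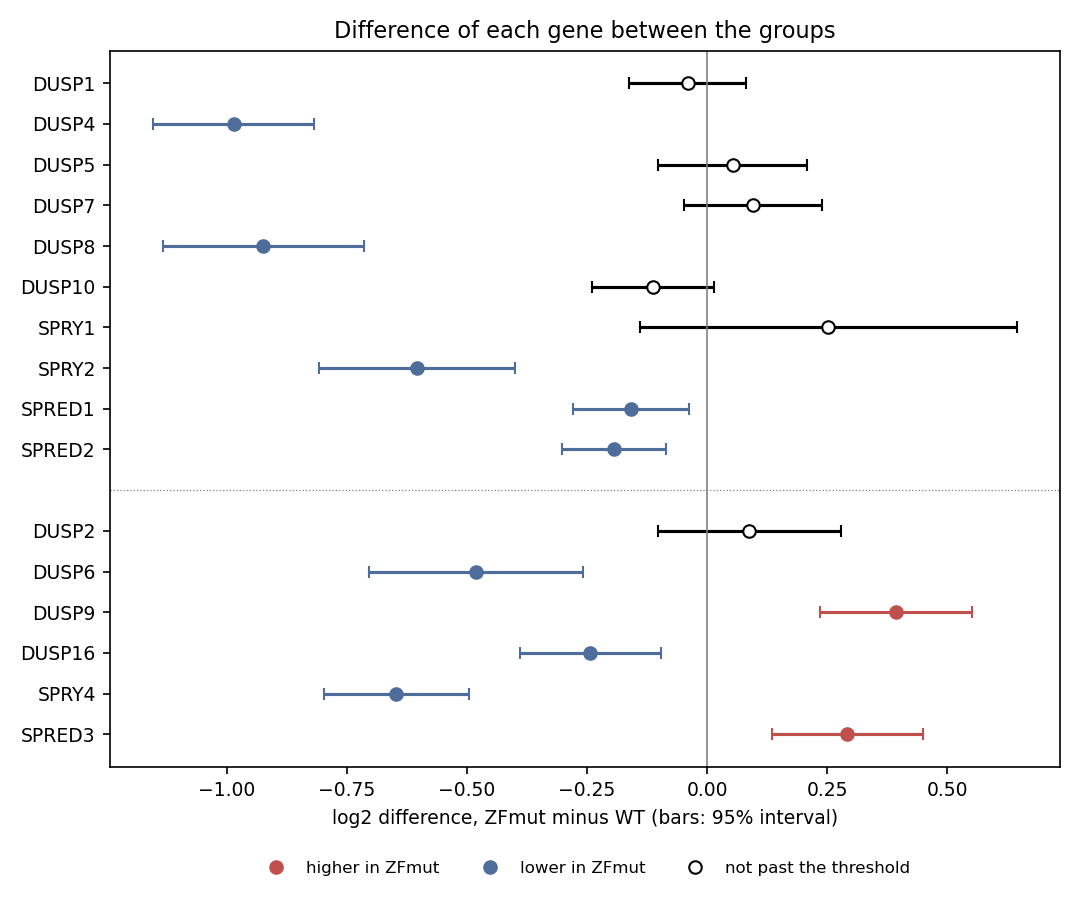
Log2 difference (ZFmut minus WT) with its 95% interval for the 10 genes, above the dotted line, and for the 6 tested remaining members of the same families, below it; filled points passed the test. DUSP4 and DUSP8 lie near -1, SPRY2, SPRY4 and DUSP6 between -0.65 and -0.48, and DUSP9 and SPRED3 on the positive side.

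Scaled to exon length, DUSP1 was the most abundant of the 10 genes and SPRY1 the least. DUSP1 averaged 27.6 ± 1.52 CPM per kilobase in ZFmut libraries and 28.5 ± 0.813 in WT libraries (SD, n = 3 each), and SPRY1 averaged 0.369 ± 0.028 in ZFmut libraries and 0.312 ± 0.037 in WT libraries. Below DUSP1 came SPRED2, DUSP10, DUSP5, DUSP7 and SPRED1, in this order in both groups, from 17.1 to 6.12 CPM per kilobase in ZFmut libraries and from 19.6 to 6.84 in WT libraries. DUSP4 followed at 3.31 ± 0.389 CPM per kilobase in ZFmut libraries, clear of SPRED1 above it and SPRY2 below it. In WT libraries, at 6.66 ± 0.292, its libraries overlapped those of SPRED1, whose libraries in turn overlapped those of DUSP7. The ranges of DUSP8 and SPRY2 overlapped in each group. The summed level of the 10 genes was 90.1 ± 2.09 CPM per kilobase in ZFmut libraries and 101 ± 3.30 in WT libraries, so the highest ZFmut library, at 92.5, lay below the lowest WT library, at 97.8.

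**Figure D3:**
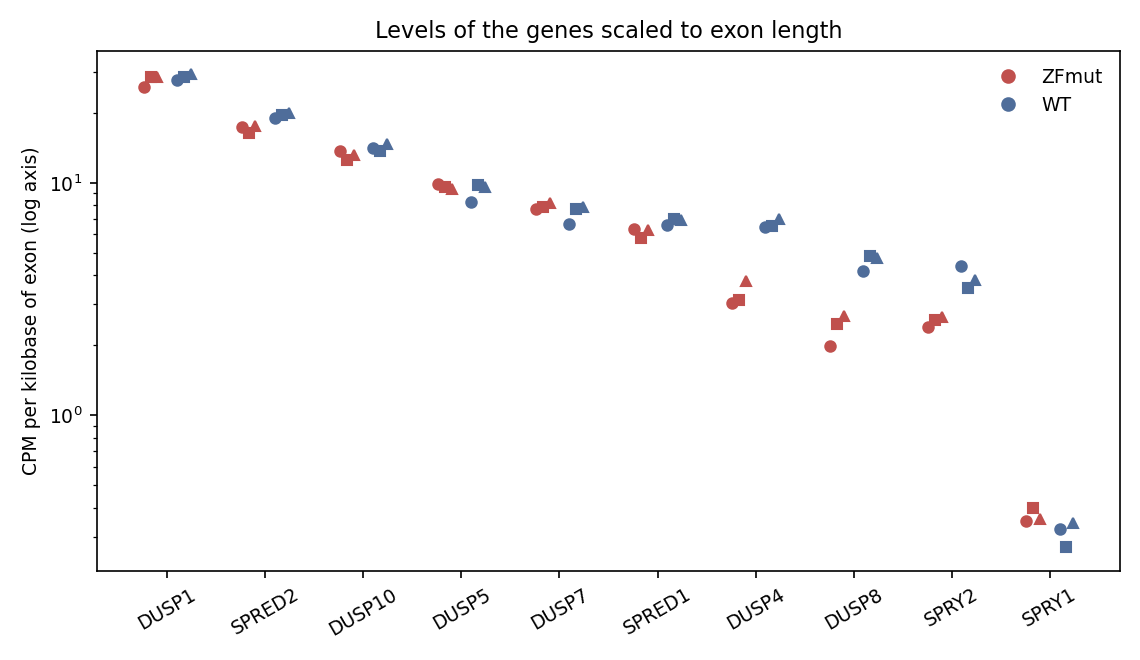
CPM per kilobase of exon (log axis) of the 10 genes, ordered by their mean level, with ZFmut left of WT for each gene and marker shapes for replicates 1 (circle), 2 (square) and 3 (triangle). The groups overlap for DUSP1 at the top, and the ZFmut points of DUSP4, DUSP8 and SPRY2 sit well below their WT points.

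Upstream sequence was read for 8 of the 10 genes from RefSeq (GRCh38.p14), as the 250 bases before each annotated start; DUSP4 and DUSP5 had no entry. DUSP8 and SPRY2 are shown because their transcripts differed most among genes with an entry, and DUSP1 because its level did not pass the test. Each window is written 5′ to 3′ on the minus strand, the strand of all 3 genes, with capitals for the motifs described after them. The positions are chr11:1572272-1572521 for DUSP8, chr13:80341127-80341376 for SPRY2 and chr5:172771196-172771445 for DUSP1.
DUSP8: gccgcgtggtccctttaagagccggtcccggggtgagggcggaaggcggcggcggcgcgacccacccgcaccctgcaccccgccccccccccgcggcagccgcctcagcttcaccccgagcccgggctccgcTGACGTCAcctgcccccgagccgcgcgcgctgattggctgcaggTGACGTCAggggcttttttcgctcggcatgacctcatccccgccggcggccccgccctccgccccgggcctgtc
SPRY2: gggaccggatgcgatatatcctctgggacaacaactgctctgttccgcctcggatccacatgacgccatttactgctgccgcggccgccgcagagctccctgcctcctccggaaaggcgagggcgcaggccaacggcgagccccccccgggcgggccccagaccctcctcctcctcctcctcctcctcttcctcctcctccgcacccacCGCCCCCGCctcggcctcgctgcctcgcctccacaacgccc
DUSP1: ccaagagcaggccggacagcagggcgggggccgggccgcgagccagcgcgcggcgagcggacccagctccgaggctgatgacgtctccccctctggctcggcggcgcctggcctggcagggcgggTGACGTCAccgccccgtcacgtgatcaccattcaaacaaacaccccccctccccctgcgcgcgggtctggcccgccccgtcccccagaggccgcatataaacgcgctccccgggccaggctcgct

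The cyclic AMP response element TGACGTCA, a palindrome, occurred at 118 to 111 and again at 74 to 67 bases before the DUSP8 start, and at 125 to 118 bases before the DUSP1 start. It was found in 2 of the 13 windows of the 8 genes and in 1.65% of all 35116 upstream windows of this length. The windows shown for DUSP8, SPRY2 and DUSP1 had 76.8, 70.4 and 74.4% GC. The shares over all windows given here were not matched for GC content. In SPRY2 the capitals mark the EGR motif GCGGGGGCG on the opposite strand, 41 to 33 bases before the start, a motif of 4.72% of all windows; the same motif lies 28 to 20 bases before the second annotated start of SPRY1. The AP-1 motif TGANTCA (6.57% of all windows), the ETS motif CCGGAAGT (3.42%), the CArG box (1.16%) and GACCACC, a core of sites bound by ZBTB7 proteins in vitro (2.42%), were searched on both strands and had no match in the 13 windows of the 8 genes. The cyclic AMP element thus lies in the windows of both DUSP8 and DUSP1, and its part in their levels was not tested. No motif overlapped another.

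**Figure D4:**
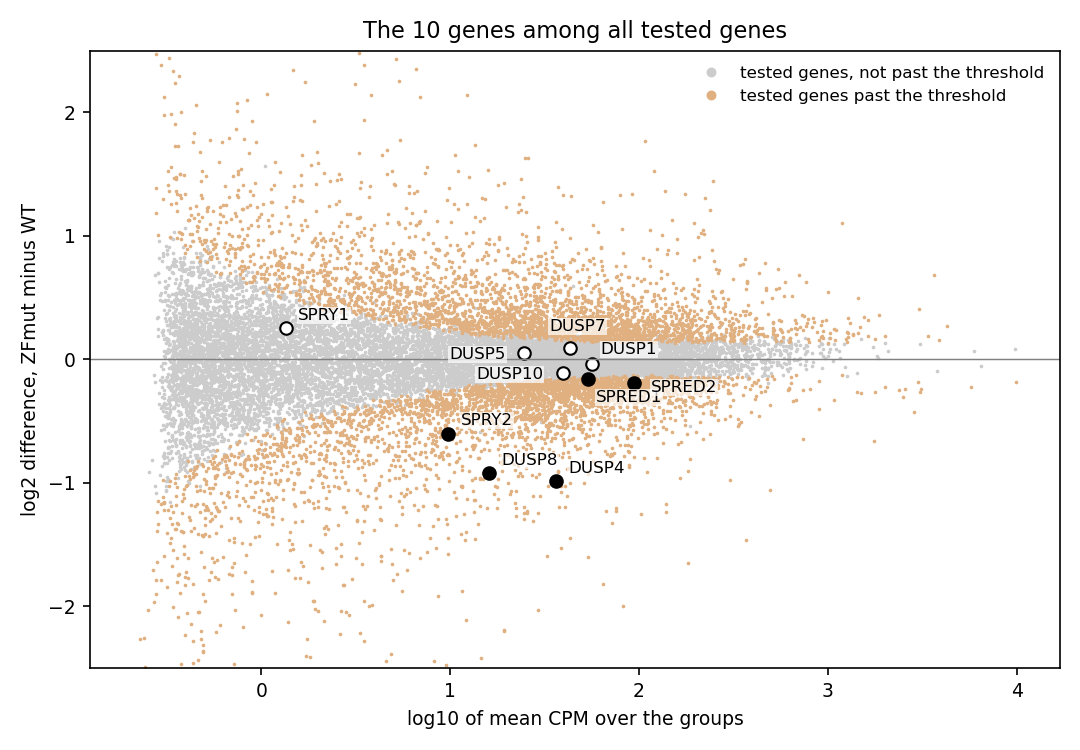
Log2 difference (ZFmut minus WT) against mean abundance (log10 CPM) for all tested genes, with the 10 genes as large circles, filled where they passed; 76 genes beyond 2.5 on the log2 scale are not drawn. DUSP4, DUSP8 and SPRY2 lie outside the cloud of genes that did not pass, whereas SPRED1 and SPRED2 lie at its edge.

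The rest of the same families moved in both directions. Of 7 genes 6 could be tested, since SPRY3 was hardly transcribed, and 3 were lower and 2 higher in ZFmut, with a median log2 difference of -0.078. SPRY4, a Sprouty gene like SPRY2, was lower at -0.65 ± 0.07, with 20.3, 17.5 and 20.02 CPM in ZFmut libraries, against 29.4, 30.3 and 31.1 CPM in WT libraries (edgeR adjusted p = 6.91e-06). DUSP6, the ERK phosphatase of the cytoplasm, was lower at -0.48 ± 0.10 (edgeR adjusted p = 0.00230), but 40.5% of its exonic sequence overlaps a gene on the other strand, and the library kit does not mark the strand. DUSP9, a relative of DUSP6 and DUSP7, was higher at 0.39 ± 0.07 (edgeR adjusted p = 0.000864). SPRED3 was higher at 0.29 ± 0.07 and DUSP16, which favours JNK, lower at -0.24 ± 0.07. Without ZFmut replicate 3, 1 was higher and 2 lower, as SPRED3 and DUSP16 missed the threshold (edgeR adjusted p = 0.0538 and 0.0557), and without WT replicate 2, 2 were lower, with DUSP16 at 0.0545. Over all genes 2266 were higher and 2504 lower without ZFmut replicate 3, and 2958 were lower without WT replicate 2. The reported fit had 3207 higher and 3442 lower.

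Of 9 tested small dual-specificity phosphatases that lack the kinase-binding domain of the MAP kinase phosphatases, 4 were lower and 1 higher, with a median log2 difference of -0.21. DUSP3, which can act on ERK and JNK, was lower at -0.34 ± 0.05, DUSP22 at -0.25 ± 0.06, and DUSP26 at -1.72 ± 0.24 on 8 to 85 reads per library. The other lower gene, DUSP11, was at -0.21 ± 0.08 (edgeR adjusted p = 0.0404). It lost its call with upper-quartile factors, DESeq2, no low-count filter, and GC and length correction without or with the block. The same held without any library other than ZFmut replicate 1 (adjusted p over these fits from 0.0541 to 0.218). The lower count was 3 in DESeq2 and 5 with the replicate block. Over all genes 2837 were lower in DESeq2 and 4466 with the block, against 3442 in the reported fit. The higher gene, DUSP14, lost its call in DESeq2, with no low-count filter and without any library other than ZFmut replicate 1.

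The kinases that these proteins restrain were called in both directions. Of 16 genes from adaptors through RAS and RAF to ERK, 4 were lower and 3 higher, with a median log2 difference of -0.078. With the replicate block 8 were lower and 5 higher, and 2 were lower without ZFmut replicate 2 or 3 or WT replicate 1 or 3. Over all genes, lower calls went from 3442 in the reported fit to 4466 with the block, and higher calls from 3207 to 4226. Lower calls over all genes were 2504 to 2893 in the fits without one of those libraries. The RAS exchange factor gene SOS2 was lower at -0.51 ± 0.07 (edgeR adjusted p = 8.05e-05), whereas the scaffold gene KSR1 was higher at 0.39 ± 0.07. The ERK gene MAPK3 was higher at 0.25 ± 0.07, and its call ended once GC and length were corrected for (0.089, edgeR adjusted p = 0.139). Of 10 tested JNK and p38 kinases and the kinases above them, 3 were lower and 2 higher (median -0.071). The p38 genes did not move together. MAPK12 and MAPK13 were higher, at 0.78 ± 0.09 and 0.75 ± 0.12, although 29.3% of the MAPK12 exons overlap another gene on the same strand. MAPK13 averaged only 5.17 CPM in ZFmut and 3.13 CPM in WT libraries. MAPK11 was lower at -0.39 ± 0.09 (edgeR adjusted p = 0.00249). MAPK14, the most abundant p38 gene at 82.7 against 85.8 CPM, did not pass (-0.056, edgeR adjusted p = 0.403). MAP2K3, the gene of a kinase that activates p38, was lower at -0.46 ± 0.06. With the GC and length correction 3 of these 10 were higher, and under a stricter filter (5 CPM in 3 libraries), which leaves MAPK13 out, 1 was. Over all genes 3822 were higher with that correction and 2547 of 11870 under that filter.

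Among 10 genes transcribed in response to ERK, 3 were lower and 2 higher, with a median of -0.16. EGR1 was lower at -0.72 ± 0.07, with 49.8, 59.6 and 54.1 CPM in ZFmut libraries, against 83.4, 95.4 and 90.5 CPM in WT libraries. PHLDA1 was lower at -0.47 ± 0.10 and ETV5 at -0.28 ± 0.06, while MYC was higher at 0.26 ± 0.07. Of the PHLDA1 exonic sequence, 16.5% overlaps a gene on the other strand, which the library kit does not tell apart. With GC and length corrected for, 7 of the 10 were lower and 1 higher, and with the replicate block 5 were lower. Without ZFmut replicate 3 or WT replicate 1 or 2, 1 was higher. Over all genes, 3923 were lower and 3822 higher with that correction, against 3442 and 3207 in the reported fit. Higher calls over all genes were 2266 to 2779 in the fits without one of those libraries. Of 11 other restraints of receptor and RAS signalling, 5 were lower and 0 higher by edgeR (4 and 0 by DESeq2), with a median of -0.15. LRIG1, which promotes the loss of receptors of the EGF family, was lower at -0.45 ± 0.06, IL17RD, an inhibitor of fibroblast growth factor signalling, at -0.33 ± 0.06, and PEA15, which holds ERK in the cytoplasm, at -0.18 ± 0.05. Genes on the other strand overlap 12.9% of the LRIG1 and 6.59% of the PEA15 exonic sequence. In that list 2 were lower without WT replicate 3 and 3 without ZFmut replicate 2, 1 was higher with the replicate block and 2 after GC and length correction. Over all genes, 2654 were lower without WT replicate 3 and 2893 without ZFmut replicate 2, against 3442 in the reported fit. Higher calls over all genes were 4226 with the block and 3822 with that correction, against 3207. NF1, the gene of the neurofibromin that Spred proteins bind, was lower at -0.21 ± 0.06. It missed the threshold with that correction (-0.070, edgeR adjusted p = 0.140) and without ZFmut replicate 2 or 3 or WT replicate 1 or 3 (adjusted p from 0.0573 to 0.0831).

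**Figure D5:**
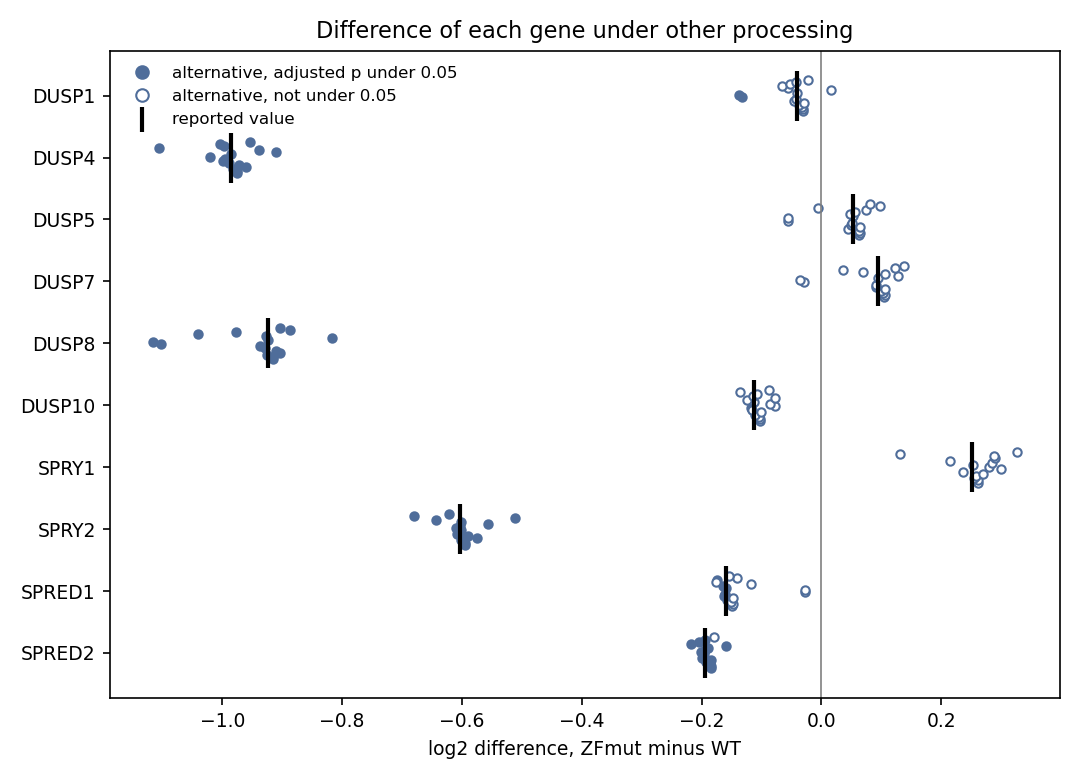
Log2 difference (ZFmut minus WT) of the 10 genes in the reported fit (black bars) and in 16 alternative fits (circles, filled where the adjusted p was under 0.05; vertical offsets only separate the points). DUSP4, DUSP8 and SPRY2 were filled in all 16, SPRED2 in 15 and SPRED1 in 6, and DUSP1, DUSP5 and DUSP7 lie on both sides of 0.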

How the data were processed

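Samples were grouped by their titles. The authors deposited, for each of 6 libraries, unnormalised read counts by Ensembl gene. The tools named in the submitters' processing notes are TopHat2 2.0.9, HTSeq, cutadapt and DESeq2, with the build GRCh38 (order, annotation release and strand setting: not given in the sources used here). Per the labels' protocols, libraries came from a NEBNext Ultra kit, which does not mark the strand. The 5 summary lines of each file were left out: they hold 5.04 to 6.56% of reads outside genes, 7.72 to 8.08% fitting several genes and 16.1 to 19.4% aligned to several places. Symbols, positions and exon unions came from GENCODE 29 (56996 identifiers matched, 52179 with the same version; among the 10 genes the version of SPRY2 differs). No exon of the 10 genes overlaps an exon of another annotated gene.

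Tests used R 4.3.3 and edgeR 4.0.16 with TMM, filterByExpr and the two-sided quasi-likelihood test, adjusted by Benjamini and Hochberg over 18683 genes. Differences are ZFmut minus WT on the log2 scale, and 95% intervals come from the fit. Alternatives are in the closing section (limma 3.58.1, DESeq2 1.42.0, loess offsets with a span of 0.5). The GC content is that of the longest transcript. The genes and lists were chosen with earlier results of these data known; from each list up to 3 called genes with the smallest p are named, and others were named after their values were seen. Some single-gene results are not reported here. The labels do not state whether replicates are separate cultures; if they are not, the spread behind each p-value is technical. No pair of replicates agreed within sampling noise (chi-square of 3.58 to 8.96 per degree of freedom). Samples with the same number in their titles deviated together from their group means. Correlations over 15243 genes were 0.380, 0.196 and 0.202, against at most 0.0976 for other pairs. The numbers were therefore taken to pair the libraries in the replicate block and in the differences by replicate number. The reported tests, SEs and intervals did not use this pairing.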

Additional observations from a re-analysis of the deposited data

How the results depend on the processing

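Over 16 alternatives (2 other scalings, DESeq2, limma-voom, 2 other filters, ZBTB7B left out, the replicate block, GC and length correction without and with that block, and each library left out in turn) DUSP4, DUSP8 and SPRY2 were lower in ZFmut and past the threshold in every one, from -1.10 to -0.91, from -1.11 to -0.82 and from -0.68 to -0.51 on the log2 scale. None of the 10 genes was called higher under any of them. The count of lower genes ran from 3, without WT replicate 3, where SPRED1 and SPRED2 dropped out, to 5 over the fits that left out a library. It was 6 with the replicate block, where DUSP10 passed at -0.12. Calls over all genes shifted too. In the reported fit 3442 of 18683 were lower and 3207 higher. With the block 4466 of 18683 were lower and 4226 higher, and without WT replicate 3 2654 of 19007 were lower and 2472 higher. The block changed no other call among the 10 genes. Genes that did not pass in the reported fit changed sign in some alternatives. After GC and length correction DUSP5 was at -0.055 (-0.056 with the block) and DUSP7 at -0.030 (-0.036 with the block). Over the left-out libraries DUSP1 ran from -0.066 to 0.016 and DUSP5 from -0.0055 to 0.098. The cause of these shifts was not tested. The scalings moved the median of all genes by less than 0.1. SPRY1 was not tested with the filter of 5 CPM. Depth limits SPRY1 most, with 31 reads in its lowest library.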
